A study of Mus musculus with 6 samples.

Results

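The mouse immunoglobulin loci are the genomic regions from which B cells build antibody genes. They were taken as all CpGs in 3 intervals of GRCm38 (mm10), namely Igh (heavy chain) at chr12:113250000-116010000, Igk (kappa light chain) at chr6:67550000-70730000, and Igl (lambda light chain) at chr16:19020000-19270000. The 6 methylation files listed 5540 CpGs in these intervals among 4175106 CpGs in all, with 2215 in Igh, 3059 in Igk, and 266 in Igl. Levels were taken at the CpGs read at least 5 times in every library, which were 1683 of 1192344 such CpGs (587 in Igh, 1008 in Igk, and 88 in Igl).

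DNA methylation was measured by reduced representation bisulfite sequencing (RRBS) in magnetically enriched CD8+ T cells from lymph nodes of C57BL/6N mice, with 2 libraries per genotype. The labels do not say whether the libraries of a genotype came from separate mice, so that p-values measure only the spread between these libraries. WT mice carried no transgene, hSTAT5B mice expressed nonmutated human STAT5B, and hSTAT5B-N642H mice expressed human STAT5B with the N642H substitution. The labels give both transgenic genotypes as +/T, that is, as hemizygous for the transgene. Both transgenes were driven by the Vav1 promoter, which is active throughout the hematopoietic system, and each was studied in 1 selected mouse line. The mice were 13 weeks old. The hSTAT5B-N642H mice developed a CD8+ T cell neoplasm, so that the N642H substitution and the diseased state cannot be told apart in these samples.

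In B cells, RAG recombinase joins V, D, and J segments at Igh and V and J segments at Igk and Igl, and deletes or inverts the DNA between the joined segments. T cells use the same recombinase on the T cell receptor loci, and are known to carry partial D-to-J joints at Igh, whereas Igk and Igl are normally kept in germline order. Segments of loci that a cell type does not use are usually methylated, and loss of CpG methylation accompanies their opening in B cells. RRBS cuts DNA with MspI at CCGG and reads the ends of the fragments, so that it sees CpGs at or close to such sites.

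The sequences that the account of low and changing CpGs turns on are given here, 5' to 3' on the + strand of RefSeq GRCm38. In the 1st line capitals mark the 10 CpGs of a stretch of Igh with almost no methylation (chr12:114378798-114378945). In the next lines they mark CpGs of Igk and Igl that were read as nearly unmethylated and had methylated CpGs close by (chr6:68592049-68592150, chr6:69023655-69023776, chr6:70695806-70695907, and chr16:19114028-19114129).
Igh low stretch: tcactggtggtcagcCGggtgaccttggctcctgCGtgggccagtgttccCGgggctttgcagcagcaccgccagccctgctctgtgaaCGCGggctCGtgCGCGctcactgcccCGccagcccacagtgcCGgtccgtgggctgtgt
Igk CpG near Igkv15-97: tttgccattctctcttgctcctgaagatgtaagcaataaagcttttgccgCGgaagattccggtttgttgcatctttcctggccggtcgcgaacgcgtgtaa
Igk CpGs near Igkv4-80: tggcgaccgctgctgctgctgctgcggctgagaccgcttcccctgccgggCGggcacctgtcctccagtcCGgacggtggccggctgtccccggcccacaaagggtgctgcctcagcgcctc
Igk CpG near Igkv3-2: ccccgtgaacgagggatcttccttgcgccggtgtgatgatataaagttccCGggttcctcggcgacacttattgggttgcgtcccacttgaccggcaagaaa
Igl lowest CpG: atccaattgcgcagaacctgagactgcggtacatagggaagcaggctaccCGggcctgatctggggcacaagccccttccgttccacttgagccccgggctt

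A further set of sequences belongs to bins and segments described below by name. Capitals mark 2 of the 3 CpGs in the Igk bin with the largest fall of the pooled level in hSTAT5B-N642H (chr6:68782628-68782753), the 7 CpGs that took most reads of the Igh bin with the smallest adjusted p for coverage (chr12:113640336-113640405), and the CpGs of the set inside the constant gene Ighg2b (chr12:113306928-113307040) and inside the V gene Ighv13-2 (chr12:114357948-114358055).
Igk falling CpG: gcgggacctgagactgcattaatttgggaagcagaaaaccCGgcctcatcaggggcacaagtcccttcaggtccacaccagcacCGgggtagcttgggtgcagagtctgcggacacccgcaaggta
Igh read bin fragment: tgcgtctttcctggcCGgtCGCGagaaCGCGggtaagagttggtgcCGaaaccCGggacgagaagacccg
Ighg2b: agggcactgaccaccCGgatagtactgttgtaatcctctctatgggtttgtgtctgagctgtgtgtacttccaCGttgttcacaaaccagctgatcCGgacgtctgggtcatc
Ighv13-2: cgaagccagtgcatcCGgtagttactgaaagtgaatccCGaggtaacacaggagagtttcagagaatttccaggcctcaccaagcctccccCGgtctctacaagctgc

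The libraries held 43291086 to 67007186 read observations at CpGs (a read over 3 CpGs counts 3 times), at 2597893 to 3445555 CpGs and with a median of 5 to 11 reads per CpG. A single CpG outside the loci took 6.86% to 11.2% of them. The CpGs of the immunoglobulin set had 44430 to 76859 reads per library and a median of 24 reads per CpG and library. WT replicate 1 listed the most CpGs, and its level at Cd8a stands apart as described with the marker genes. The reads carry no molecular identifiers, so that intervals and limits from reads cover counting error only.

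The immunoglobulin loci were poor in CpGs and in MspI sites, and what RRBS saw of them lay mostly in repeats between the segments. Igh, Igk, and Igl held 5.07, 5.34, and 5.16 CpGs per kb of sequence, against 8.51 over chromosomes 1 to 19. MspI sites stood at 3.82, 4.07, and 4.44 per 10 kb, against 6.34. Of the 1683 CpGs, 1437 (85.4%) lay in soft-masked repeats, compared with 29.4% in the rest of chromosomes 1 to 19. At most 1 other CpG lay within 50 bp for 37.2% of them, compared with 27.4% in the rest. The median distance to the nearest annotated segment was 6948 bp, with 102 CpGs within 1 kb of a segment and 19 inside one.

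The joining segments themselves were almost unseen. Of the 4 Igh J segments none had a CpG of the set within 1 kb, and of the 19 Igh D segments 2 did. At Igk, neither the constant gene Igkc nor the 5 J segments had any listed CpG within 1 kb, and the same held for the 4 constant genes, 5 J segments, and 3 V segments of Igl. CpGs of the set lay within 1 kb of 18 of 185 Ighv segments and 11 of 160 Igkv segments, and inside 7 and 0 of them. What follows is thus mostly a measurement of the DNA between V segments.

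All 3 loci were highly methylated in CD8+ T cells of every genotype, at a mean level of 88.4% to 91.9% in every library. The mean over all 3 loci was 91.2% and 91.6% in WT, 91.7% and 91.5% in hSTAT5B, and 89.96% and 90.3% in hSTAT5B-N642H. The mean over the rest of chromosomes 1 to 19 was 60.8% to 61.5%. More than 1 in 2 CpGs of the loci (931, or 55.3%) had a mean of 95% or more, whereas 36 lay under 50%, of which 17 were under 20%.

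In hSTAT5B-N642H, methylation was lower than in WT at Igh, Igk, and Igl, by 1 to 2 percentage points. At Igh, the level was 91.0% and 91.5% in WT, 91.7% and 91.3% in hSTAT5B, and 90.1% and 90.5% in hSTAT5B-N642H. Both hSTAT5B-N642H libraries lay below all 4 others. The genotype means were 91.3% ± 0.332 in WT, 91.5% ± 0.278 in hSTAT5B, and 90.3% ± 0.290 in hSTAT5B-N642H (SD, n = 2 each). The fall from WT was -1.003 percentage points and that from hSTAT5B -1.26 (both p = 0.333, exact permutation test, 2-sided). With 2 libraries against 2 this test cannot go below 0.333, and against the other 4 libraries (difference -1.13) it gave its smallest possible value, 0.0667.

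Igk, the largest of the 3 loci, moved in the same way. Its level was 91.3% and 91.8% in WT, 91.95% and 91.92% in hSTAT5B, and 90.04% and 90.4% in hSTAT5B-N642H. The hSTAT5B-N642H libraries were again below all others, and those of hSTAT5B were above WT. The mean was 91.5% ± 0.359 in WT, 91.9% ± 0.0263 in hSTAT5B, and 90.2% ± 0.224 in hSTAT5B-N642H (SD, n = 2 each). The differences were -1.34 percentage points from WT, -1.73 from hSTAT5B, and 0.39 between hSTAT5B and WT, each with p = 0.333 in the exact permutation test. Against the other 4 libraries the difference was -1.54 (p = 0.0667, exact permutation test, 2-sided).

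Igl differed in that hSTAT5B was also below WT. Its 88 CpGs had a level of 90.5% and 90.2% in WT, 89.4% and 88.8% in hSTAT5B, and 88.4% and 88.5% in hSTAT5B-N642H. No libraries of different genotypes overlapped. hSTAT5B-N642H was lower than WT by -1.85 percentage points and than hSTAT5B by -0.66, and hSTAT5B was lower than WT by -1.19 (each p = 0.333, exact permutation test). hSTAT5B-N642H differed from the other 4 libraries by -1.26 (p = 0.133, exact permutation test, 2-sided).

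**Figure D1:**
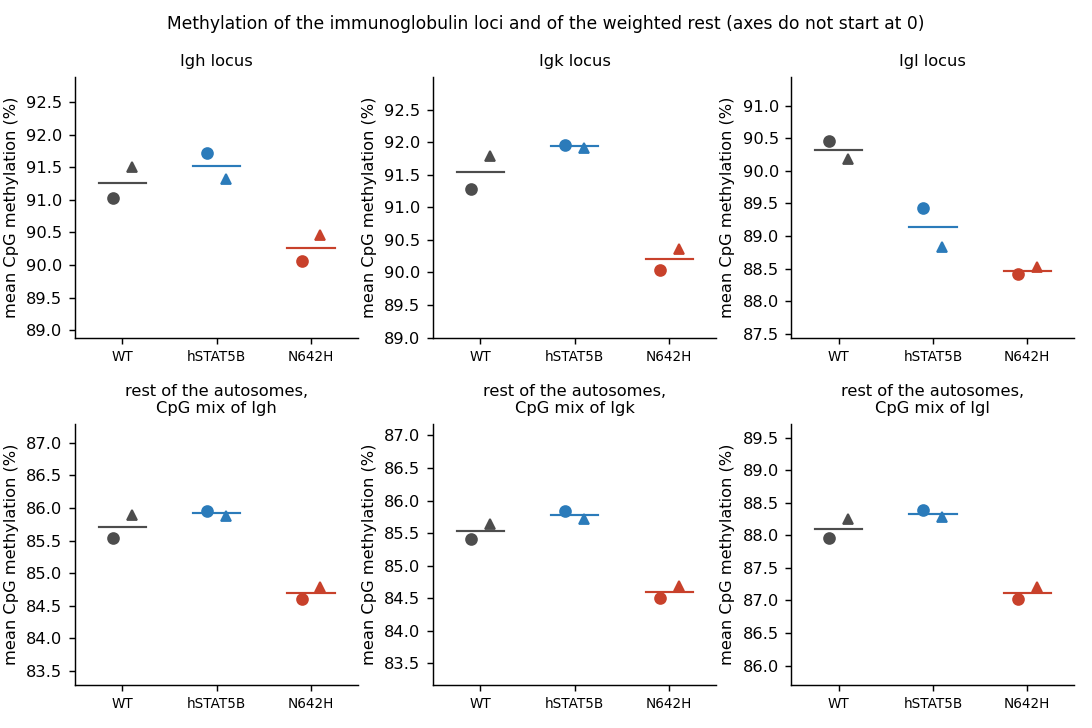
Mean CpG methylation (%, y axis, not starting at 0) by genotype, with 1 point per library (circle, replicate 1, and triangle, replicate 2) and a line at the mean of 2 libraries. The upper panels show Igh, Igk, and Igl, and the lower panels the rest of chromosomes 1 to 19 weighted to the CpG mix of each locus. In all 6 panels both hSTAT5B-N642H libraries lie below all other libraries.

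The fall was then set against the rest of the genome, since hSTAT5B-N642H was also lower there. CpGs of chromosomes 1 to 19 outside the immunoglobulin and T cell receptor loci were weighted to the same mix of neighboring CpGs, A or T flanks, and repeats as each locus. With the mix of Igh, the rest had a level of 85.5% and 85.9% in WT, 86.0% and 85.9% in hSTAT5B, and 84.6% and 84.8% in hSTAT5B-N642H. It was lower in hSTAT5B-N642H than in WT by -1.01 percentage points, so that the excess of Igh over it was 5.56 points in hSTAT5B-N642H and 5.55 in WT (p = 1, exact permutation test). The fall at Igh was thus as large as that of the weighted rest.

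At Igk and Igl the fall was larger than in the weighted rest. With the mix of Igk, the rest fell by 0.94 percentage points, and the excess of Igk over it was 5.61 in hSTAT5B-N642H and 6.01 in WT. This difference in excess, -0.40, separated the 4 libraries (p = 0.333, exact permutation test), and against the other 4 libraries it was -0.47 (p = 0.0667). The excess of Igl was 1.35 in hSTAT5B-N642H and 2.22 in WT, with a difference of -0.87. At Igl, hSTAT5B had a still smaller excess, lower than that of WT by -1.42 points.

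Along Igh, the fall in hSTAT5B-N642H was not even. The constant region (38 CpGs) had a level of 92.4% and 90.8% in WT, 93.2% and 92.5% in hSTAT5B, and 89.4% and 92.5% in hSTAT5B-N642H, and the genotypes overlapped. The J and D region (23 CpGs) had 91.5% and 92.4% in WT, 94.6% and 87.0% in hSTAT5B, and 90.3% and 88.4% in hSTAT5B-N642H. Here the libraries of hSTAT5B-N642H were below those of WT, by -2.63 points on average, while the hSTAT5B libraries spanned both.

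The V region was split at its midpoint. The part near the D segments (236 CpGs) had 88.4% and 89.4% in WT, 89.1% and 89.0% in hSTAT5B, and 87.4% and 87.3% in hSTAT5B-N642H. The far part (290 CpGs) had 92.9% and 93.2% in WT, 93.4% in both hSTAT5B libraries, and 92.3% and 92.9% in hSTAT5B-N642H. hSTAT5B-N642H was lower than WT by -1.56 points near the D segments and by -0.47 in the far part, without overlap in either. The difference between both parts was not tested.

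The kind of CpG mattered little for the direction. CpGs of all 3 loci in repeats differed between hSTAT5B-N642H and WT by -1.17 percentage points and those outside repeats by -1.69. CpGs with at most 1 other CpG within 50 bp and flanks other than A or T on both sides (609) differed by -1.51, and those with more neighbors (1057) by -1.09, where the rest of chromosomes 1 to 19 differed by -1.14 and -0.19. The 17 isolated CpGs with A or T on both sides, a context known to lose methylation with cell division, differed by -1.85 with overlapping genotypes, against -2.75 in the rest. The 84 CpGs within 1 kb of a V segment differed by -0.46, and the 1599 farther away by -1.29.

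In hSTAT5B-N642H the median CpG was also lower than in WT, and more CpGs were lower than higher. How the fall divides by the starting level of a CpG was not tested, nor was the part of depth in these medians and counts. The median level of a CpG of the set was 96.4% and 96.6% in WT, 97.1% and 97.2% in hSTAT5B, and 94.96% and 95.2% in hSTAT5B-N642H. CpGs read as methylated in every read made up 42.2% and 39.5% of the set in WT, 41.9% and 45.0% in hSTAT5B, and 27.5% and 34.0% in hSTAT5B-N642H, although this share also falls with depth, which was the highest in hSTAT5B-N642H replicate 1. Of the 1683 CpGs, 912 had a lower mean in hSTAT5B-N642H than in WT, 611 a higher one, and 160 the same. Both hSTAT5B-N642H libraries lay below both WT libraries at 289 CpGs (17.2%), compared with 12.5% of 1136205 CpGs genome-wide, and above both at 143 (8.50%), compared with 8.91%. The CpGs genome-wide were not matched to the loci in level or CpG mix.

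No single bin or CpG of the loci passed a test over the genome. Bins of 10 kb with at least 3 CpGs were compared with limma, with the 3 genotypes in 1 model, and p-values were adjusted over 98780 bins by the Benjamini-Hochberg method. Of the 197 bins of the loci (80 in Igh, 106 in Igk, and 11 in Igl), 0 were called in any of the 3 comparisons, as were 0.0% of all bins. The smallest adjusted p in the loci was 0.567 for hSTAT5B-N642H against WT, 0.727 for hSTAT5B against WT, and 0.577 for hSTAT5B-N642H against hSTAT5B. At an unadjusted p under 0.05, there were 10, 14, and 16 bins (5.08%, 7.11%, and 8.12% of the 197), compared with 7.83%, 6.24%, and 7.81% of all bins. Among 1136205 single CpGs, 0.0% were called in each comparison, and of the 1683 CpGs of the loci 0 were called, with 89, 63, and 91 at an unadjusted p under 0.05.

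The bins of the loci leaned to lower levels somewhat more than all bins did. Both hSTAT5B-N642H libraries were below both WT libraries in 63 bins (31.98%), compared with 27.4% of all bins, and above both in 16 (8.12%), compared with 12.2%. Against hSTAT5B, both were below in 78 bins (39.6%, compared with 29.3%) and above in 18 (9.14%, compared with 11.1%). Both hSTAT5B libraries were above WT in 36 bins (18.3%, compared with 18.1%) and below in 28 (14.2%, compared with 15.0% of all bins), so that these shares were near those of all bins. The median difference of hSTAT5B-N642H from WT was -1.32 percentage points over the 197 bins and -0.775 over all bins. All bins were not matched to the loci in level or CpG mix. Against the weighted rest above, the fall was as large at Igh and larger at Igk and Igl.

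**Figure D2:**
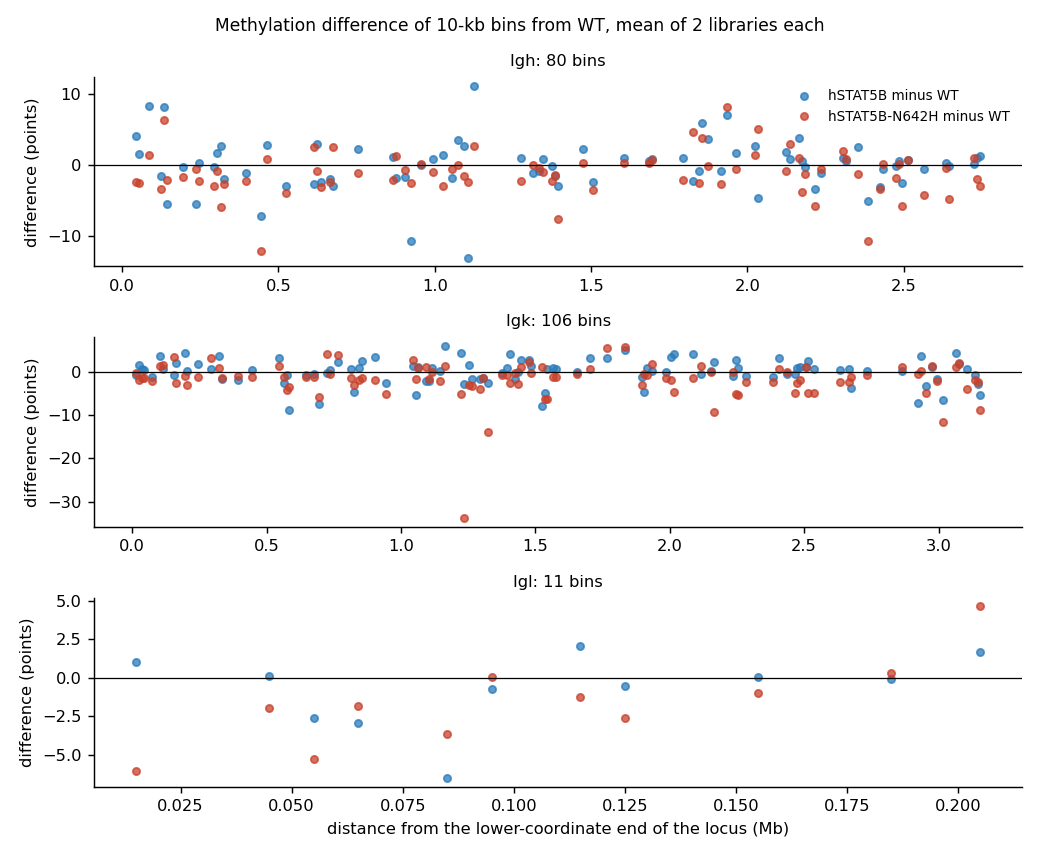
Difference in methylation from WT (percentage points, y axis) of each 10-kb bin against its distance from the lower-coordinate end of the locus (Mb, x axis), in Igh, Igk, and Igl, with the level from the pooled reads of a bin and as the mean of 2 libraries minus the mean of 2 libraries. Most bins lie within 10 points of 0 for both hSTAT5B (blue) and hSTAT5B-N642H (red), and 1 Igk bin stands at -33.8 in hSTAT5B-N642H.

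The level of a bin was taken from the pooled reads of its CpGs, and by this measure the largest change was in Igk, in the bin chr6:68780001-68790000, whose 3 CpGs lie between V segments. Its level was 74.1% and 61.4% in WT, 63.9% and 65.8% in hSTAT5B, and 38.7% and 29.2% in hSTAT5B-N642H. Both hSTAT5B-N642H libraries were far below the other 4, which overlapped. The difference was -33.8 percentage points from WT and -30.9 from hSTAT5B, with a log2 ratio of methylated to unmethylated reads lower by -1.95 than in WT (limma, adjusted p = 0.567).

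The pooled level also moves with the reads that each CpG takes. The unweighted mean of the 3 CpGs was 73.1% and 64.6% in WT, 69.05% and 69.1% in hSTAT5B, and 56.4% and 50.6% in hSTAT5B-N642H, and differed from WT by -15.3 points, again with both hSTAT5B-N642H libraries below the other 4. The CpG at 100% in every library took 29.6% and 27.3% of the reads of the bin in WT, 22.2% and 26.03% in hSTAT5B, and 6.45% and 10.4% in hSTAT5B-N642H. Thus both the level and the spread of reads over the CpGs differed.

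Among the 3 CpGs the level moved most at Igk_68782712 of the sequence shown above (position 68782712 of chromosome 6, 13609 bp from Igkv4-91). It was methylated in 9 of 11 and 11 of 16 reads in WT, in 8 of 14 and 20 of 27 reads in hSTAT5B, and in 16 of 48 and 4 of 30 reads in hSTAT5B-N642H. These reads give 81.8% and 68.8%, 57.1% and 74.1%, and 33.3% and 13.3%. The 95% Wilson intervals reached from 52.3% to 94.9% and from 44.4% to 85.8% in WT, and from 21.7% to 47.5% and from 5.31% to 29.7% in hSTAT5B-N642H. Its neighbor 44 bp away, the other CpG in capitals, stayed between 25% and 50% in all 6 libraries, and the remaining CpG of the bin was the one at 100%. For Igk_68782712 the adjusted p in limma was 0.727. In bisulfite reads, an unmethylated cytosine and a thymine in the DNA cannot be told apart. Both CpGs in capitals also lie in CCGG sites, which are 44 bp apart here. Levels at sites this close to another one are described below. The library protocol fills in cut ends with new cytosines, and its part here was not tested.

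Smaller changes were spread over the loci. In Igh, the largest falls were in chr12:113690001-113700000, with 92.6% and 87.2% in WT, 80.6% and 84.8% in hSTAT5B, and 80% and 75.3% in hSTAT5B-N642H (difference from WT -12.2 percentage points), and in chr12:115630001-115640000 (-10.7). The largest rises there were 6.27 in chr12:113380001-113390000, in the constant region, and 4.53 in chr12:115070001-115080000. In Igk, chr6:68870001-68880000 was lower by -13.9, and chr6:69380001-69390000 and chr6:68310001-68320000 were higher by 5.62 and 3.90. In Igl, chr16:19030001-19040000 and chr16:19070001-19080000 were lower by -6.08 and -5.28, and chr16:19220001-19230000 and chr16:19200001-19210000 higher by 4.65 and 0.28. In each of these bins the pooled levels of hSTAT5B-N642H and WT did not overlap, and none passed adjustment. With the unweighted mean of the CpGs, the falls of the Igh bins were -11.7 and -8.57, that of the Igk bin -12.8, and those of the Igl bins -1.58 and -4.91. The rises became 3.86 and 3.40 in Igh, 5.68 and 4.94 in Igk, and 4.05 and -1.07 in Igl, so that the sign turned in the last. The genotypes then overlapped in the bins of Igh at 115630001 and 113380001, of Igk at 68310001, and of Igl at 19200001.

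Of the constant genes, which encode the antibody classes, those for IgG could be read in part. Ighg2b (IgG2b, chr12:113302965-113307933) had 3 CpGs inside, shown above, at 97.1% and 91.7% in WT, 90.9% and 94.4% in hSTAT5B, and 86.8% and 93.5% in hSTAT5B-N642H. Ighg3 (IgG3) had 1 CpG inside, at 100% in all 6 libraries on 11 to 35 reads. Ighg1 (IgG1) had 2 CpGs within 1 kb, at 75.8% and 76.2% in WT, 85.1% and 84.6% in hSTAT5B, and 78.5% and 82.3% in hSTAT5B-N642H. Both transgenic genotypes were above WT at Ighg1, on as few as 26 reads. The constant pseudogene Gm37944 had 1 CpG, at 87.5% to 100%. Ighm, Ighd, Ighg2c, and Igha, for IgM, IgD, IgG2c, and IgA, had listed CpGs but none with 5 reads in all libraries, and Ighe, for IgE, had none listed.

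The D segments Ighd5-5 and Ighd2-7 share 2 CpGs between them. The mean of both was 95% and 92.3% in WT, 100% and 97.2% in hSTAT5B, and 100% in both hSTAT5B-N642H libraries, on 12 to 37 reads. Both CpGs lie between the segments, and no CpG of the set lay inside a D segment.

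V families with at least 5 CpGs of the set within 1 kb of their segments were highly methylated as well. Ighv5 (11 CpGs) and Ighv1 (21 CpGs) had means of 92.6% and 93.6%, and Igkv14, Igkv15, Igkv9, and Igkv1 means of 87.8%, 88.3%, 97.2%, and 97.9%. hSTAT5B-N642H was lower than WT without overlap in Ighv5 by -2.70 percentage points, in Ighv1 by -0.57, and in Igkv1 by -1.68. Of all 10-kb bins, 27.4% were lower and 12.2% higher in this way. hSTAT5B differed from WT by -3.99 in Ighv5 and by -0.97 in Igkv1, both with overlap, and by 0.66 in Ighv1 without overlap. In Ighv5, hSTAT5B-N642H thus lay above hSTAT5B on average, with overlap. Igkv14 and Igkv9 differed by -0.57 and -0.85 and Igkv15 by 0.87, each with overlapping genotypes. Ighv5-2 was at 100% in all libraries at its 2 CpGs, and the 3 CpGs of Ighv13-2, shown above, were at 77.8% to 96.7%. Ighv8-11, with 1 CpG, went from 37.5% to 100%, with 40% and 58.3% in WT, 100% and 37.5% in hSTAT5B, and 100% and 81.2% in hSTAT5B-N642H, so that libraries of the same genotype differed as much as the genotypes. Ighv8-10, also with 1 CpG, had 72.2% and 53.6% in WT, 76.2% and 35.7% in hSTAT5B, and 91.2% and 75% in hSTAT5B-N642H. Reads of V segments with close copies can be assigned to the wrong copy, and whether that happened was not tested.

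Against this methylated background, 1 stretch of Igh was unmethylated. It covers 118 bp (chr12:114378813-114378930), holds 10 CpGs of the set, lies outside repeats, and begins 11.9 kb from the V gene Ighv12-3, the nearest segment. Its mean level was 1.43% and 6.34% in WT, 23.4% and 4.17% in hSTAT5B, and 7.40% and 6.15% in hSTAT5B-N642H. Only hSTAT5B replicate 1 stood higher, and the genotypes overlapped (hSTAT5B-N642H minus WT 2.89 percentage points, p = 0.667, exact permutation test). The means of its 10 CpGs ran from 4.94% to 12.2%, so that the stretch was low as a whole. All 5 lowest CpGs of Igh were in it.

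In Igk and Igl, the lowest CpGs had more methylated CpGs close by. The CpG at position 68592099 of chromosome 6, 267 bp from the pseudogene Igkv15-97, was methylated in 0 of 77 reads over the 6 libraries, which allows up to 3.90%. Of its neighbors, the CpG 2 bp before was at a mean of 97.9% and that 10 bp after at 100%. The CpGs at 69023705 and 69023725, 6625 and 6645 bp from Igkv4-80, had means of 0.877% and 2.00%, and are close neighbors. A CpG 4 bp from the former, at 69023701, had a mean of 58.7%, with 43.6% to 74.1% in the libraries, and a CpG 4 bp from the latter had a mean of 90.1%. The CpG at 70695856, 2593 bp from Igkv3-2, had 0%, 13.3%, 9.09%, 0%, 8.11%, and 4.35% in the WT, hSTAT5B, and hSTAT5B-N642H libraries in turn, and a CpG 9 bp away 99.2% on average. Position 69639068, 6890 bp from Igkv4-54, had a mean of 3.66%.

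The lowest CpG of Igl, at 19114078 of chromosome 16, lies 28578 bp from Iglv1. It had 6.25% and 6.67% in WT, 16% and 0% in hSTAT5B, and 27.9% and 11.5% in hSTAT5B-N642H, and a CpG 29 bp away had a mean of 99.6%. The next lowest of Igl were at 40.8% (19114279), 61.4% (19083202), 62.7% (19171891), and 65.2% (19252005). All 10 of these Igk and Igl CpGs lie in repeats. A cytosine read as unmethylated in every cell and a thymine in the DNA cannot be told apart here. The CpGs at 69639068, 19114078, 19114279, and 19083202 lie in CCGG sites with the next site 45 to 48 bp away. For those at 70695856 and 69023725 the next site is 22 and 11 bp away, and the others lie outside CCGG. Levels at such sites are described next.

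**Figure D3:**
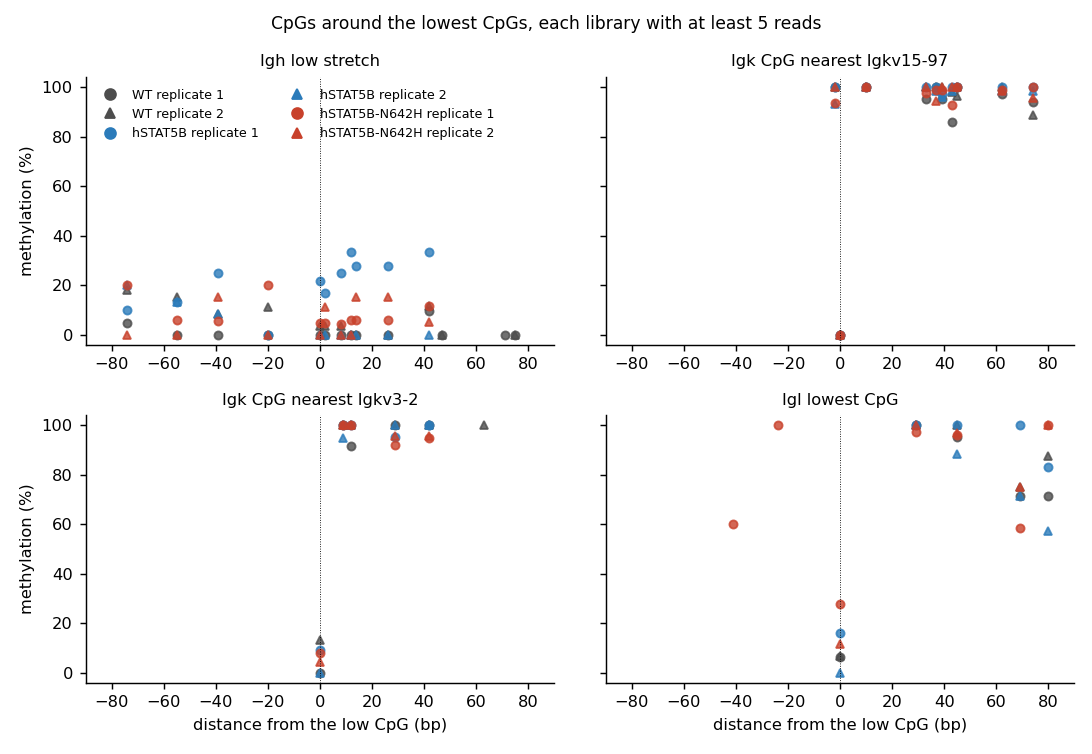
Methylation (%, y axis) of CpGs with at least 5 reads around 4 low CpGs against the distance from the low CpG (bp, x axis), with 1 point per library. In the Igh stretch all CpGs lie low, whereas the neighbors of the low CpGs near Igkv15-97 and Igkv3-2 lie at 86.0% to 100%, and those of the low CpG of Igl at 99.6% on average for the nearest and down to 57.1% in single libraries farther away.

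Levels differed with the position in the MspI fragments. CpGs inside a CCGG site whose next site was over 50 bp away (757) had a mean of 95.2%, with 3 under 50%. Those with the next site 31 to 50 bp away (76) had a mean of 77.5%, with 15 under 50%, and those with it up to 30 bp away (85) had 89.6%. CpGs outside CCGG (765) had a mean of 88.4%. In the rest of chromosomes 1 to 19 the means were 81.3%, 49.2%, 51.2%, and 49.0% in the same order. The library protocol fills in the cut ends with new cytosines, and its part in the low levels at short distances was not tested. Of the 36 CpGs under 50%, 21 lay in a CCGG, and 15 of those had the next site 31 to 50 bp away.

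At CpGs outside CCGG, hSTAT5B-N642H differed from WT by -0.77 percentage points at Igh, -1.35 at Igk, and -1.46 at Igl. These CpGs, like all of the set, lay within 50 bp of a CCGG. At Igh, the nearest libraries were hSTAT5B-N642H replicate 2 at 86.43% and WT replicate 2 at 86.51%. The part of the library protocol in these differences was not tested.

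**Figure D4:**
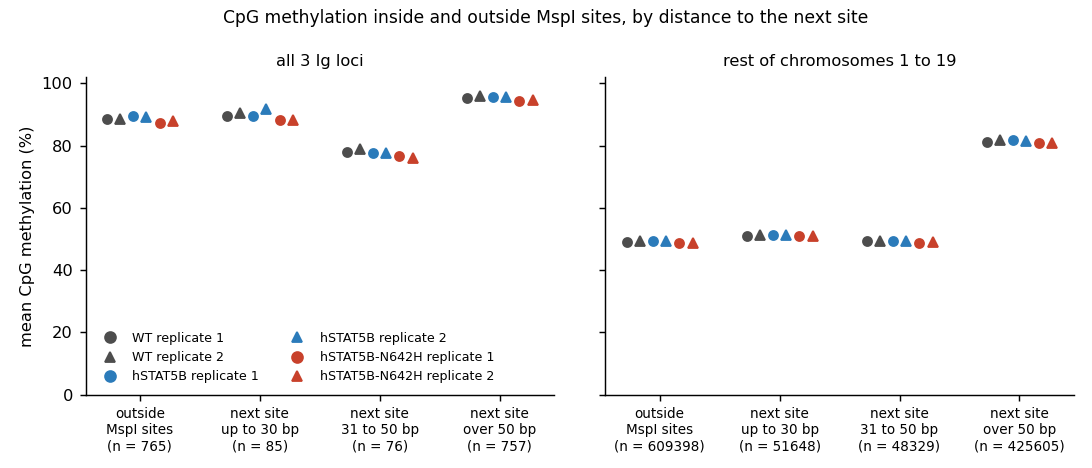
Mean CpG methylation (%, y axis) of CpGs outside MspI sites and inside them by the distance to the next site, in all 3 immunoglobulin loci and in the rest of chromosomes 1 to 19, with 1 point per library and n the number of CpGs. In the loci the mean falls from 95.2% where the next site is over 50 bp away to 77.5% where it is 31 to 50 bp away, in all libraries.

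Reads over the loci were then compared, since rearrangement or a change of cell makeup can change how much DNA of a locus is present. Coverage is given as RPM, the read observations of a locus per 1000000 of the library. Igh had 475 and 462 RPM in WT, 478 and 457 in hSTAT5B, and 476 and 459 in hSTAT5B-N642H. Igk had 732 and 724 in WT, 726 and 728 in hSTAT5B, and 762 and 730 in hSTAT5B-N642H. Igl had 58.5 and 55.9, 59.6 and 59.7, and 58.2 and 58.8. The genotypes overlapped at all 3 loci between hSTAT5B-N642H and WT, and over all loci together the means differed by 1.498% (p = 0.667, exact permutation test, 2-sided).

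The J and D region of Igh, which D-to-J joining shortens, had 11.3 and 10.6 RPM in WT, 11.7 and 11.9 in hSTAT5B, and 12.5 and 11.4 in hSTAT5B-N642H. This was 2.43% and 2.35%, 2.52% and 2.68%, and 2.69% and 2.54% of the reads of the rest of Igh. No loss of reads in hSTAT5B-N642H was seen there. In RPM, both transgenic genotypes were above WT without overlap, by 8.98% in hSTAT5B-N642H and by 8.15% in hSTAT5B. The V part near the D segments had 184 and 175 RPM in WT, 188 and 181 in hSTAT5B, and 199 and 185 in hSTAT5B-N642H, and the far part 253 and 249, 250 and 240, and 237 and 237. hSTAT5B-N642H was above WT by 6.90% in the former and differed by -5.52% in the latter, without overlap. In the far part, it was also below all other libraries (p = 0.0667, exact permutation test). For comparison, 29.2% of all 10-kb bins had fewer and 15.5% more reads in hSTAT5B-N642H than in WT without overlap. Their median log2 ratio was -0.0904.

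Of the T cell receptor loci, which T cells rearrange, Tra, Trd, and Trb had fewer reads in hSTAT5B-N642H than in WT, and Trg, for the gamma chain, had more. Tra and Trd together had 392 and 385 RPM in WT, 371 and 369 in hSTAT5B, and 364 and 348 in hSTAT5B-N642H. Trb had 80.6 and 72.3, 69.2 and 65.6, and 69.9 and 67.3. The means of hSTAT5B-N642H differed from WT by -8.44% at Tra and Trd and by -10.2% at Trb, whereas the immunoglobulin loci differed by 1.498%. Trg had 27.4 and 27.0 RPM in WT, 26.6 and 28.4 in hSTAT5B, and 28.0 and 30.9 in hSTAT5B-N642H, and its mean was higher than in WT by 8.12%. The libraries of hSTAT5B-N642H and WT did not overlap at any of these T cell receptor loci. Both hSTAT5B libraries also lay below both WT libraries at Tra and Trd and at Trb. At Trb they overlapped those of hSTAT5B-N642H. Of all 10-kb bins, 29.2% had fewer and 15.5% more reads in hSTAT5B-N642H than in WT without overlap. Over all 10-kb bins, the median log2 ratio of reads in hSTAT5B-N642H to WT was -0.0904. Whether the lower reads at Tra, Trd, and Trb reflect a loss of DNA was not tested. In bulk samples, such a loss in all cells could not be told apart from a larger share of cells with it. The methylation level of Tra and Trd was 89.1% and 89.2% in WT, 87.6% and 88.1% in hSTAT5B, and 86.2% and 86.9% in hSTAT5B-N642H, a fall of -2.54 points from WT that was larger than at Igh or Igk. No test of that difference was made. At Trg it was 83.2% and 83.6%, 84.7% and 85.2%, and 85.6% and 85.8%, so that hSTAT5B-N642H was higher than WT by 2.29 points.

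Bins of 10 kb were tested for reads with limma on log2 RPM. Of 154148 bins, 0.0525% were called for hSTAT5B-N642H against WT, 0.00259% for hSTAT5B against WT, and 0.0013% for hSTAT5B-N642H against hSTAT5B. Of the 334 bins of the immunoglobulin loci, 0 were called, with 36, 15, and 17 (10.8%, 4.49%, and 5.09%) at an unadjusted p under 0.05, compared with 13.5%, 7.61%, and 8.63% of all bins. For hSTAT5B-N642H against WT, 1 bin of the loci was called when only bins with a mean of at least 100 reads were tested, and 2 without WT replicate 2. Both hSTAT5B-N642H libraries were above WT in 67 bins (20.1%, compared with 15.5% of all bins) and below in 86 (25.7%, compared with 29.2%).

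The bin of the loci with the smallest adjusted p, chosen after its values were seen, was chr12:113640001-113650000, in the V region of Igh. It had 11.2 and 12.6 RPM in WT, 19.1 and 19.4 in hSTAT5B, and 20.1 and 22.9 in hSTAT5B-N642H, from 493 to 1348 reads. Both transgenic genotypes were above WT without overlap. The log2 ratio to WT was 0.85 in hSTAT5B-N642H (limma, adjusted p = 0.0521) and 0.69 in hSTAT5B (adjusted p = 0.522). Of its 11 CpGs, 7 within 38 bp, in a repeat 5191 bp from Ighv5-7, held 92.8% to 96.4% of its reads, so that nearly all of its reads lay on 1 stretch, the Igh read bin fragment shown above. Of these 7, 6 were methylated at means of 75.3% to 98.3%, and the CpG at 113640389 was at 12.9% on average, with 16.4% and 24.4% in WT, 14.2% and 6.36% in hSTAT5B, and 8.05% and 7.69% in hSTAT5B-N642H. This CpG and that at 113640351 lie in CCGG sites 38 bp apart. Levels at sites this close are described above, and the part of the end fill-in here was not tested.

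The bins with the largest changes in reads without overlap had 8 to 380 reads per library. In Igh, log2 ratios of hSTAT5B-N642H to WT were -1.94 in chr12:114780001-114790000 (89 and 73 reads in WT and 55 and 11 in hSTAT5B-N642H) and -1.93 in chr12:114990001-115000000, and 1.21 in chr12:114770001-114780000 and 1.07 in chr12:114350001-114360000. In Igk they were -1.74 in chr6:69910001-69920000, -1.69 in chr6:68700001-68710000, 1.202 in chr6:68290001-68300000, and 1.19 in chr6:69590001-69600000. In Igl they were -0.58 in chr16:19120001-19130000, -0.51 in chr16:19100001-19110000, 0.69 in chr16:19150001-19160000, and 0.46 in chr16:19170001-19180000. Neighboring bins of Igh at 114770001 and 114780001 moved in opposite directions. None of these bins passed adjustment.

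**Figure D5:**
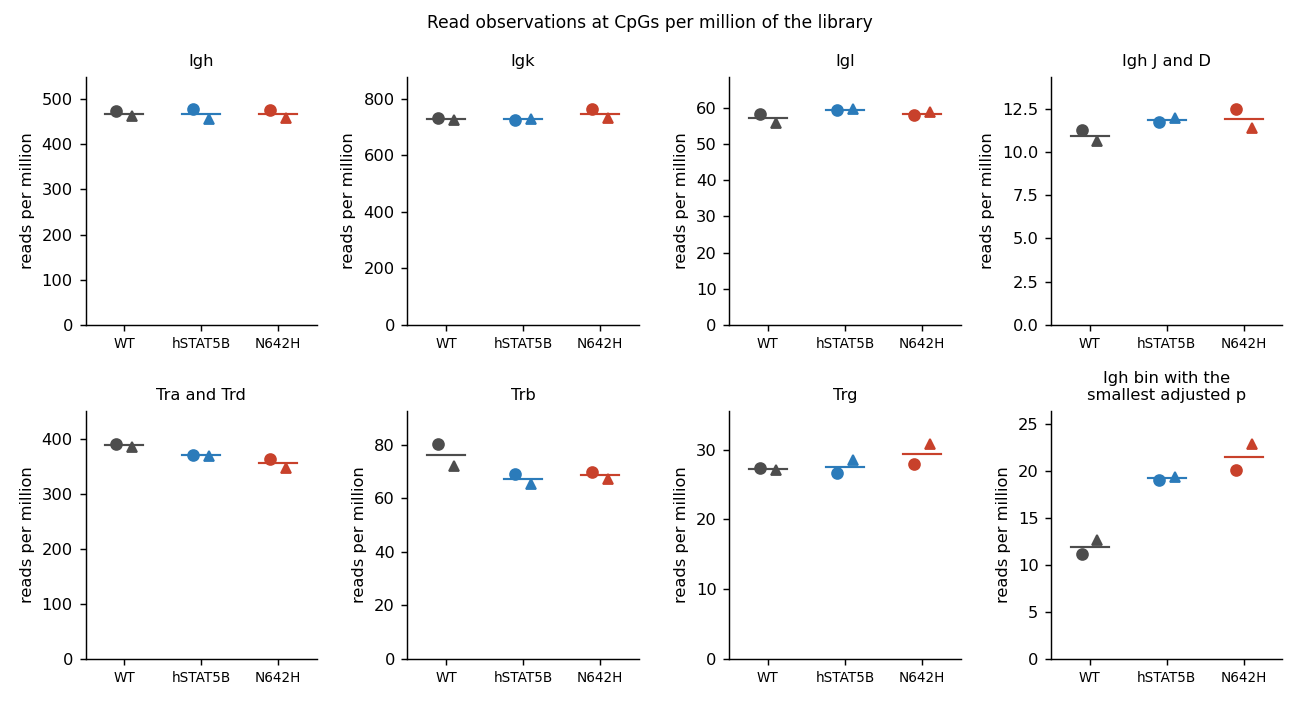
Read observations at CpGs, in RPM, (y axis from 0) by genotype, with 1 point per library (circle, replicate 1, and triangle, replicate 2) and a line at the mean of 2 libraries. Igh, Igk, and Igl lie at similar heights in all genotypes, and the J and D region of Igh is lowest in WT. Tra and Trd and Trb are highest in WT, and the Igh bin with the smallest adjusted p is lowest in WT, at 11.2 and 12.6.

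Marker genes were read as the level within 10 kb, where a cell type that uses a gene is known to have less methylation. Cd8a and Cd8b1 encode the chains of the CD8 coreceptor. Cd8a was at 65.7% and 35.9% in WT, 35.4% and 42.6% in hSTAT5B, and 33.3% and 29.8% in hSTAT5B-N642H, so that WT replicate 1 was higher than all other libraries. Cd8b1 was at 44.2% and 45.6%, 23.9% and 29.5%, and 13.9% and 14.3%. Over the 12 genes of the CD8+ T cell list the mean level was 59.0% and 55.0% in WT, 53.3% and 53.5% in hSTAT5B, and 51.5% and 51.2% in hSTAT5B-N642H, with 6 genes lower and 1 higher in hSTAT5B-N642H than in WT without overlap. Of 20155 protein-coding genes with a level, 24.9% were lower and 15.6% higher in this way.

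Markers of B cells, which rearrange and use the immunoglobulin loci, varied in both directions. Over their 12 genes the mean level was 53.2% and 57.0% in WT, 53.6% and 58.9% in hSTAT5B, and 57.1% and 56.5% in hSTAT5B-N642H, with 2 genes higher and 5 lower in hSTAT5B-N642H than in WT without overlap, beside the 15.6% and 24.9% of all protein-coding genes. The median difference of hSTAT5B-N642H from WT over the genes was -0.45 percentage points. Of these genes, Ms4a1 had only 1 CpG, at 54.5% and 85.7% in WT, 50% and 100% in hSTAT5B, and 91.7% and 81.2% in hSTAT5B-N642H, so that it moves the mean strongly. The part of cell makeup in the differences at the immunoglobulin loci was not tested. Without WT replicate 1, hSTAT5B-N642H differed from WT by -1.24 percentage points at Igh, -1.59 at Igk, and -1.72 at Igl.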

How the data were processed

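RRBS data of 6 libraries were used, 2 per genotype. The authors trimmed reads with Trimmomatic, aligned them to GRCm38 (mm10) with BSMAP, and deposited for each CpG the counts of methylated and of all reads, with both strands combined and not normalized. Tool versions are not given in the sources used here. The authors also deposited a score per CpG, the methylated share on a scale up to 1000, which matched the counts.

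All CpGs read CG in the RefSeq GRCm38 sequence, and segments were taken from GENCODE M21. Levels are means over CpGs read at least 5 times in every library. Depth is given with the results. Single values were compared with exact permutation tests over libraries, 2-sided. Genome-wide comparisons used limma with the 3 genotypes in 1 model and p-values adjusted by Benjamini-Hochberg at 0.05, on log2((methylated + 1)/(unmethylated + 1)) for bins of 10 kb with at least 3 CpGs and for single CpGs, and, with a mean-variance trend, on log2 RPM with 0.5 added for bins with a mean of 20 reads. CpGs with 1000 or more reads were left out of the tests of levels. The code was tested on simulated data.

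Reads are stored as text pairs, so that a test on the log scale was used and no count model. Alternatives were minimums of reads, bin widths, offsets, filters, scaling, leaving out each library, and the replicate number as a block. The weighting of the rest of the genome, CpGs outside CCGG, and the unweighted mean of a bin's CpGs were chosen after seeing the data. Same-numbered libraries of different genotypes shared only a number, with correlations of their deviations of 0.0014 to 0.0024.

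Named were all constant genes and J or D segments with a CpG of the set within 1 kb, the 5 lowest CpGs per locus, the bins with the largest rises and falls among those without overlap (2 each per locus), and V families with at least 5 CpGs. Single V segments, the Igh bin with the smallest adjusted p, and single CpGs of bins were chosen after their values were seen. The members and lists were chosen with earlier results of these data known. The mRNA experiment was not analysed here. Some single genes of the marker lists are not reported here. Python 3.11.15, NumPy 2.4.6, pandas 2.3.3, matplotlib 3.10.9, pysam 0.24.0, R 4.3.3, and limma 3.58.1 were used.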

Additional observations from a re-analysis of the deposited data

Results flagged for a closer look

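At Igh and Igk, both hSTAT5B libraries had a methylation level above the WT mean and both hSTAT5B-N642H libraries a level below it. The difference between hSTAT5B-N642H and hSTAT5B was -1.26 percentage points at Igh and -1.73 at Igk. For reads of Igk, both hSTAT5B libraries (725.8 and 727.7 RPM) lay below the WT mean of 727.9 RPM, 1 of them only just. Both hSTAT5B-N642H libraries (762 and 730 RPM) lay above it. The mean was higher in hSTAT5B-N642H than in hSTAT5B by 19.5 RPM. The sign of the difference in Igk reads between hSTAT5B and WT changed with the processing, as given below. Whether the effects of both transgenes differ was not tested beyond the exact permutation test of these differences, which with 2 libraries each gave 0.333, its smallest possible value.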

How the results depend on the processing

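Of the recomputed values, 247 kept their direction and call or stayed within 1.5 times the count, 22 reversed, and 4 moved. The levels of hSTAT5B-N642H were below WT in all 3 loci in every alternative, except at Igh above the rest with the same CpG mix (0.00904 percentage points). Those of Igl were above hSTAT5B outside CCGG (0.197) and above the rest with the same CpG mix (0.547), and those of Igk in hSTAT5B were below WT outside repeats (-1.16). With the unweighted mean of the CpGs, the named Igl bin at 19200001 was lower than WT (-1.07).

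Log2 ratios of reads lay near 0 and changed sign. At Igh, hSTAT5B-N642H to WT was 0.12 over CpGs with 5 reads in all libraries. hSTAT5B to WT was 0.0276 without CpGs of 1000 or more reads in the total, 0.11 over CpGs with 5 reads, and 0.0124 relative to the rest of the chromosome at Igh, and 0.0287, 0.0898, and 0.0284 at Igk. At Igh, hSTAT5B-N642H to hSTAT5B was -0.0296 in the 1st and -0.0310 in the last of these settings. Leaving out each library gave -0.0289 to 0.0228 for hSTAT5B-N642H to WT, -0.0344 to 0.0278 for hSTAT5B to WT, and -0.0306 to 0.0316 for hSTAT5B-N642H to hSTAT5B at Igh, -0.00963 to 0.00527 for hSTAT5B to WT at Igk, and -0.00103 to 0.0655 for hSTAT5B-N642H to WT at Igl.

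The number of bins of the loci called for reads in hSTAT5B-N642H against WT was 1 with a mean of at least 100 reads, 1 with bins of 50 kb, and 0 to 2 when each library was left out, with 2 without WT replicate 2. The causes were not tested.

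With the replicate block, the differences of hSTAT5B-N642H from WT were -1.003 at Igh, -1.34 at Igk, and -1.85 at Igl, and it changed no call in the loci. The SDs over 2 pairs were 0.0413, 0.134, and 0.267. These pairs share only a replicate number, so that their SDs do not measure the precision of the differences. Within genotypes, the SD at Igh was 0.332 in WT and 0.290 in hSTAT5B-N642H. Over all bins, the 81 calls for reads in hSTAT5B-N642H against WT became 185 with the block, 391 with bins of 50 kb, 5 with no filter, 9 with voom weights, and 16 to 682 when each library was left out (682 without WT replicate 2). The 4 calls of hSTAT5B against WT became 2 to 20, and the 2 calls of hSTAT5B-N642H against hSTAT5B became 0 to 54. Depth limits single CpGs, which had a median of 24 reads, and 2 libraries per genotype limit every test.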

Other observations

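Genes that act on the immunoglobulin loci showed no common direction of methylation within 10 kb. Of 13 such genes, 3 were higher and 3 lower in hSTAT5B-N642H than in WT without overlap, and of all protein-coding genes 15.6% were higher and 24.9% lower. Rag2, a subunit of the RAG recombinase, was at 74.7% and 83.9% in WT, 78.2% and 87.7% in hSTAT5B, and 90.7% and 88.4% in hSTAT5B-N642H, on only 3 CpGs. Rag1, its partner, was at 54.0% and 59.8%, 59.96% and 61.2%, and 52.7% and 58.2%, with overlap between hSTAT5B-N642H and WT. Irf4, a transcription factor of plasma cells and of activated T cells, was at 39.6% and 37.8%, 38.1% and 38.3%, and 40.6% and 41.8%, and was highest in hSTAT5B-N642H.

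The CD4+ T cell genes Cd4 and Zbtb7b were at a mean of 28.7% and 29.2% in WT, 30.01% and 28.2% in hSTAT5B, and 29.9% and 28.8% in hSTAT5B-N642H. Over 5 myeloid genes, the mean was 70.4% to 72.2% in all libraries.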
